A study of Mus musculus with 12 samples.

Results

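The gasdermin genes described here are Gsdmc, Gsdmc2, Gsdmc3 and Gsdmc4, which are paralogs of a single mouse gene cluster, and Gsdmd, the gasdermin of inflammasome signalling. They are 5 of the 23329 gene rows of the count tables. They were selected on their values in the duodenum, where the Gsdmc paralogs were lower after treatment and Gsdmd was the contrast, so their treatment values in that tissue are a description given without a test. The tissues were spleen and duodenum of wild type C57BL/6J mice, an inbred laboratory strain, aged 2 months. Mice had received either isotype control antibody or AC H6, which switches on LTbR, the lymphotoxin beta receptor. The dose per mouse was 100 ul at 1 mg/ml, and the treatment lasted 24 hours. Each of the 4 combinations of tissue and antibody had 3 libraries. The labels do not say that each library came from its own mouse, so the errors measure the spread between libraries, which may be technical.

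Gasdermins are pore-forming proteins. In the uncut protein a C-terminal domain holds back an N-terminal domain, and a protease cut sets the N-terminal domain free to insert into membranes, where its pores let out interleukin-1 family cytokines and can end in lytic cell death (pyroptosis). Gsdmd is cut by caspase-1 and by mouse caspase-11, the product of the gene Casp4. The Gsdmc paralogs of the mouse intestine are known as epithelial genes that rise with the type 2 cytokines interleukin-4 and interleukin-13 during worm infection. LTbR belongs to the tumour necrosis factor receptors, signals through NF-kB and is known for lymphoid organ formation and for epithelial defence in the gut.

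The Gsdmc paralogs lie next to each other on the minus strand of chromosome 15 within 136330 bases of the mouse build GRCm38 (mm10; GENCODE M21 gene models). Gsdmc is at chr15:63775968-63808759, Gsdmc2 at chr15:63824346-63845177, Gsdmc3 at chr15:63857724-63878558 and Gsdmc4 at chr15:63891264-63912297. Gsdmd is on the same chromosome, on the plus strand, at chr15:75862327-75867408. All 5 are annotated as protein-coding.

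The paralogs are so alike that a short read often matches several of them. The coding starts are shown for that reason: bases 1 to 90 of the longest GENCODE M21 coding sequence of each member, 5′ to 3′, with capitals in the Gsdmc paralogs where a base differs from Gsdmc2 at the same place.
Gsdmc: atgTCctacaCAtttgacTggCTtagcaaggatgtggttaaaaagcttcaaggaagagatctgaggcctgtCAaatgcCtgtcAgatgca
Gsdmc2: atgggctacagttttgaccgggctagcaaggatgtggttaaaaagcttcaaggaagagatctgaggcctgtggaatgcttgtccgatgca
Gsdmc3: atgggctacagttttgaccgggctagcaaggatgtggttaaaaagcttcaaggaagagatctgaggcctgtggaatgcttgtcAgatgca
Gsdmc4: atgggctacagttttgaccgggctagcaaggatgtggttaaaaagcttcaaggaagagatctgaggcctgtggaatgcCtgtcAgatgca
Gsdmd: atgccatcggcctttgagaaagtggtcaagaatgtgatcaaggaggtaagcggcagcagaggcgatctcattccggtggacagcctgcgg
In this window Gsdmc3 differs from Gsdmc2 at 1 base, Gsdmc4 at 2 and Gsdmc at 11, and Gsdmd cannot be laid over them base by base.

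Over the whole coding sequence, aligned end to end, Gsdmc2 and Gsdmc3 were 97.1% identical, and each was 93.8% identical to Gsdmc4. Gsdmc stood further off, at 87.0% to Gsdmc2, 87.3% to Gsdmc3 and 87.5% to Gsdmc4. Gsdmd was 58.2% to 60.1% identical to the 4 paralogs. The coding sequences hold 468 codons before the stop in Gsdmc, 480 in each of Gsdmc2, Gsdmc3 and Gsdmc4, and 487 in Gsdmd. Of all stretches of 50 bases in the longest transcript, 48.5% of those in Gsdmc2, 46.9% in Gsdmc3, 39.0% in Gsdmc4 and 16.4% in Gsdmc occurred exactly in a transcript of another Gsdmc paralog, against 0.0% in Gsdmd. The deposited counts keep reads with several matches, so the values of single Gsdmc paralogs are uncertain and their sum is given beside them, although a read counted in several rows enters that sum more than once. The Gsdmd row shares no such stretch with the cluster.

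Of the 5 members, 1 matched the RefSeq promoter sequences used here (GRCm38.p6). Gsdmc, Gsdmc2, Gsdmc4 and Gsdmd had no entry. The 250 bases before the Gsdmc3 start, chr15:63878559-63878808 on the minus strand, are printed because Gsdmc3 is 1 of the paralogs that were lower together in the duodenum. Capitals mark the matches found.
Gsdmc3: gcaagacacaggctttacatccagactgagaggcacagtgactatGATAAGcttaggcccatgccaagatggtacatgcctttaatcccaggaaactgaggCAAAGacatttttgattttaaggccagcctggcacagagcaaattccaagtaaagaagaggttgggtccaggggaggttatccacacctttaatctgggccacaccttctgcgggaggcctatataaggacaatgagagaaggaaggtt
Both strands were searched for 5 sets of letters. GATAAG, a core of GATA factor motifs, matched once on the sense strand at position -205 from the gene start, and 6.5% of 32851 promoter windows of the same length hold it. CAAAG, letters found within motifs of the nuclear receptor HNF4, matched once at -149, and 48.6% of windows hold it. TTCNNNNGAA (the spacing of STAT6 sites, 5.9% of windows), TTCNNNGAA (other STAT factors, 7.0%) and CATAAA (caudal factors, 10.8%) are not in this window. The matches do not overlap, and they are descriptions of letters, not of bound sites.

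In the duodenum of isotype-treated mice the Gsdmc paralogs were present at low levels and Gsdmd at a high one. Gsdmc4 had 37, 123 and 88 reads in isotype replicates 1, 2 and 3. Gsdmc2 had 18, 65 and 45 reads, Gsdmc3 8, 41 and 24, and Gsdmc 5, 11 and 10. In all 4 rows replicate 1 was the lowest. Gsdmd had 7063, 9537 and 8604 reads.

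Levels can be compared between genes only per length, here as CPM (read counts scaled to a common library size) divided by the kilobases of all exons joined. On that scale Gsdmd stood at 144.5 ± 7.1 (SD, n = 3) in the duodenum under isotype. Gsdmc4 followed at 1.54 ± 0.574, apart from Gsdmd in every library. Below it came Gsdma2 at 0.784 ± 0.632, Gsdmc2 at 0.711 ± 0.290, Gsdme (listed under its older name Dfna5) at 0.620 ± 0.0993, Gsdma at 0.465 ± 0.0933 and Gsdmc3 at 0.397 ± 0.216. From Gsdmc4 to Gsdmc3 each neighbour in that order overlapped the next over the libraries. Gsdmc, at 0.143 ± 0.0314, was below all libraries of Gsdmc3. The order below Gsdmd depends on the length used. With the longest transcript in place of all exons, Gsdmd was at 191.6, Gsdme came next at 1.71, and Gsdmc4 followed at 1.54, Gsdma2 at 1.45, Gsdmc2 at 0.761, Gsdma at 0.465, Gsdmc3 at 0.424 and Gsdmc at 0.143.

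After AC H6 all 4 Gsdmc paralogs were nearly absent from the duodenum. Gsdmc4 went from 1.90, 4.25 and 3.46 CPM in the isotype libraries to 0.0896, 0.0362 and 0.0541 CPM in the AC H6 libraries, which hold 3, 1 and 2 reads. Gsdmc2 was at 0.923, 2.25 and 1.77 CPM under isotype and at 0.179, 0.181 and 0 CPM under AC H6 (6, 5 and 0 reads). Gsdmc3 was at 0.410, 1.42 and 0.943 CPM against 0.0896, 0.0725 and 0.0270 CPM. Gsdmc was at 0.256, 0.380 and 0.393 CPM under isotype and had 0 reads in all AC H6 libraries, which allows up to 0.0306 CPM over the group (3 counts). In each of the 4 rows every AC H6 library was below every isotype library. That separation, AC H6 all below isotype, was found in 26.3% of the 15667 genes tested in the duodenum, and since the rows were chosen for it nothing is read from the comparison.

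**Figure D1:**
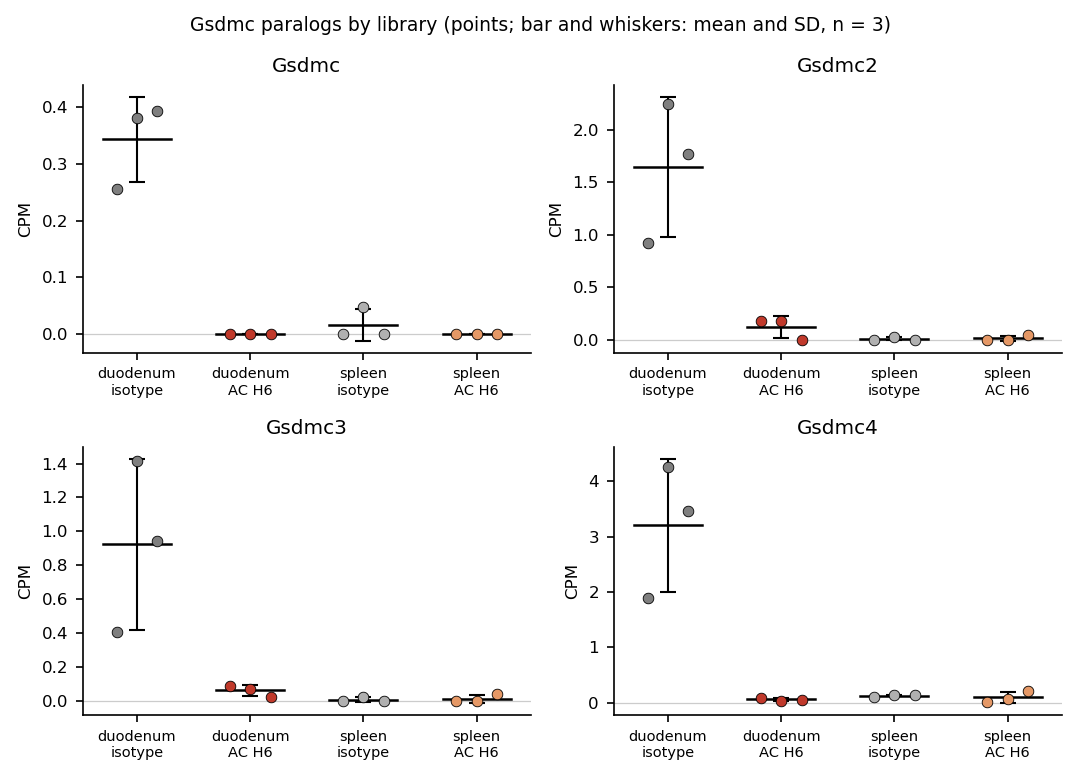
Level in CPM (vertical axes, linear, different in each panel) of the 4 Gsdmc paralogs in the 12 libraries, by tissue and antibody (horizontal axes). Points are libraries, bars and whiskers the mean and SD of 3 libraries; duodenum isotype is the only group clearly above 0 in every panel.

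Pooled over the 3 libraries of a group and scaled by library size, Gsdmc4 was 54.9-fold higher under isotype than under AC H6 (248 against 6 reads, 95% exact counting interval 24.9 to 151.0). The ratio was 15.5 for Gsdmc2 (128 against 11 reads, interval 8.35 to 31.7) and 16.2 for Gsdmc3 (73 against 6 reads, interval 7.08 to 45.5). Gsdmc, at 26 against 0 reads, was at least 11.5-fold higher under isotype, where 0 was replaced by 3 counts per group. The sum of the paralogs went from 6.12 ± 2.44 CPM to 0.243 ± 0.144 CPM (SD, n = 3), a ratio of 27.4 (475 against 23 reads, interval 18.1 to 43.7). The intervals cover counting error only, and that of the sum takes each counted match as a separate read, so it can be too narrow. In edgeR's fit over all genes the log2 fold changes were -3.83 ± 0.59 (standard error) for Gsdmc2, -3.86 ± 0.59 for Gsdmc3 and -5.62 ± 0.47 for Gsdmc4. That fit called 3 of the 4 members that passed the filter on low counts lower, while 16.1% of all genes tested were called lower. Because this contrast chose the members, the call is no evidence. Gsdmc did not pass the filter.

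The 12 libraries held 13874091 to 45847467 counts, and 2 from the duodenum stood apart. Isotype replicate 1 held 7.56% of its reads in the ribosomal RNA row Rn45s, against 0.0880% to 1.18% in the others, and AC H6 replicate 3 held 8.64% in pancreatic amylase 2. Amylase 2 was also at 2.13% in isotype replicate 2 and 0.745% in AC H6 replicate 2, which were not set apart. The 2 libraries that stood apart also had the lowest Gsdmc sums of their groups, 3.49 CPM in isotype replicate 1 and 0.0811 CPM in AC H6 replicate 3. Without both, the ratio of the sum was 22.9 (407 against 20 reads, interval 14.6 to 37.8). Leaving out 1 library at a time gave 19.6 to 37.8 for the sum. Without isotype replicate 2, which held 240 of the 475 isotype reads, that ratio was 22.3. Without AC H6 replicate 3 the ratio of Gsdmc2 was 9.62, and that of Gsdmc at least 7.17 (at least 7.58 without AC H6 replicate 1). In bulk tissue, fewer cells of a type and less RNA per cell cannot be told apart.

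The reads were split over the paralogs in nearly the same way in the 3 isotype libraries. Gsdmc4 took 54.4%, 51.2% and 52.7% of the Gsdmc reads, Gsdmc2 26.5%, 27.1% and 26.9%, and Gsdmc3 11.8%, 17.1% and 14.4%. Pooled, Gsdmc4 held 52.2% (95% exact Clopper-Pearson interval 47.6 to 56.8) and Gsdmc2 26.9% (23.0 to 31.2). Under AC H6 only 23 reads were left, of which Gsdmc4 held 26.1% (10.2 to 48.4) and Gsdmc2 47.8% (26.8 to 69.4). The AC H6 libraries held 12, 8 and 3 of these reads, and the highest share was that of Gsdmc2 in AC H6 replicates 1 and 2 and that of Gsdmc4 in replicate 3. A read matching several paralogs can enter several rows, so these shares are shares of counted matches.

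**Figure D2:**
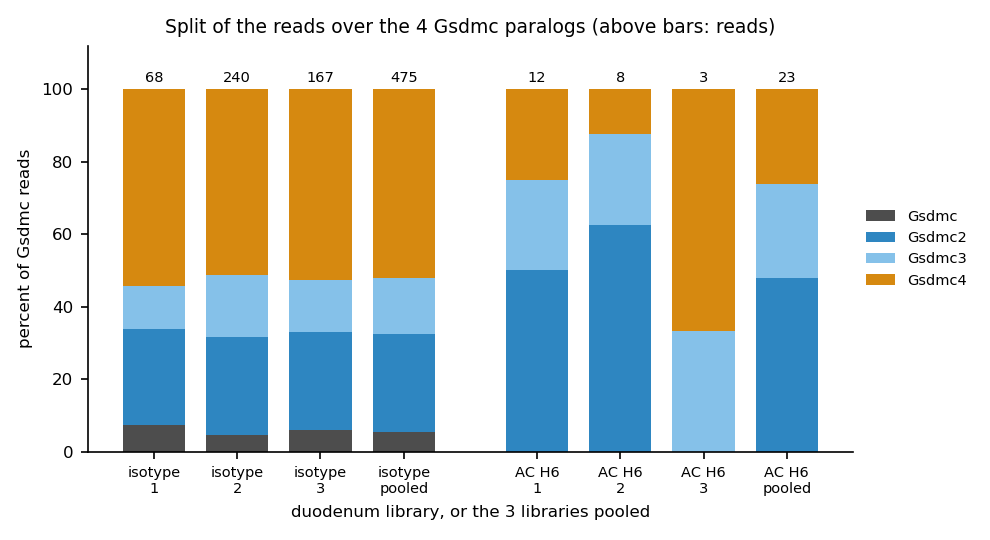
Share of the Gsdmc reads that each paralog holds, in percent (vertical axis), in each duodenum library and in the 3 libraries of a group pooled (horizontal axis), with the number of reads above each bar. Gsdmc4 holds 51.2% to 54.4% in every isotype library; the AC H6 bars rest on 12, 8, 3 and, pooled, 23 reads.

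In the spleen the Gsdmc paralogs were at or near 0 under both antibodies. Summed, they had 2, 10 and 4 reads under isotype and 1, 3 and 7 under AC H6, so the groups overlapped. Gsdmc4 gave most of these reads, with 2, 6 and 4 under isotype against 1, 3 and 5 under AC H6. Its pooled ratio of isotype over AC H6 was 1.77 with an interval of 0.686 to 4.77, so no difference was detectable at this depth. Without AC H6 replicate 3, which held 5 of the 9 AC H6 reads, the ratio was 3.17. The other 3 paralogs held 0 to 2 reads per spleen library. None of the 4 passed the filter on low counts in the spleen.

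Between tissues under isotype, Gsdmc4 was 24.9-fold higher in duodenum than in spleen (248 against 12 reads, interval 14.01 to 48.9). Gsdmc2 had 128 reads in the duodenum against 1 in the spleen, a ratio of 154.4 with an interval of 27.2 to 6144, and Gsdmc3 73 against 1, a ratio of 88.0 with an interval of 15.3 to 3524. For Gsdmc the counts were 26 against 2 (ratio 15.7, interval 3.92 to 136.3). The spleen reads of these 3 rows all came from isotype replicate 2. The paralogs that entered the fit between tissues did so through the duodenum alone, and the duodenum isotype libraries are those whose high values helped to choose them, so no count of calls is given. After AC H6 the duodenal Gsdmc sum had 12, 8 and 3 reads, against 1, 3 and 7 in the spleen. The pooled ratio was 2.53 (interval 1.18 to 5.74), and 5.51 without spleen AC H6 replicate 3. In CPM the libraries overlapped, at 0.358, 0.290 and 0.0811 in the duodenum and 0.0224, 0.0606 and 0.287 in the spleen. The interval takes each counted match as a separate read and can be too narrow, so no remaining tissue difference is read from it.

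Gsdmd was far more abundant than the cluster, and its difference between antibodies was small. In the duodenum it stood at 362.2, 329.7 and 338.2 CPM under isotype and at 306.4, 305.9 and 300.0 CPM under AC H6, every AC H6 library below every isotype library. The fitted log2 fold change was -0.15 ± 0.06, which is given as a description because Gsdmd was chosen as the contrast in that comparison. Without the 2 libraries that stood apart it was -0.10.

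In the spleen, which played no part in the choice, Gsdmd was at 68.98, 67.09 and 72.60 CPM under isotype and at 63.08, 69.59 and 66.24 CPM under AC H6, with overlapping groups. The log2 fold change of -0.07 ± 0.06 did not pass the test (edgeR quasi-likelihood, adjusted p = 0.516, unadjusted p = 0.322). Gsdmd was the only member tested there, so 0 of 1 was called, against 3.98% of the 15270 genes tested in the spleen. DESeq2 and limma-voom called no member either.

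Gsdmd was higher in duodenum than in spleen under isotype by 2.28 ± 0.06 on the log2 scale (edgeR quasi-likelihood, adjusted p = 4.55e-09), and its lowest duodenum library, 329.7 CPM, was above its highest spleen library, 72.6 CPM. In that comparison 42.2% of the genes tested were called higher in the duodenum, and the duodenum isotype libraries also entered the contrast that chose the members.

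**Figure D3:**
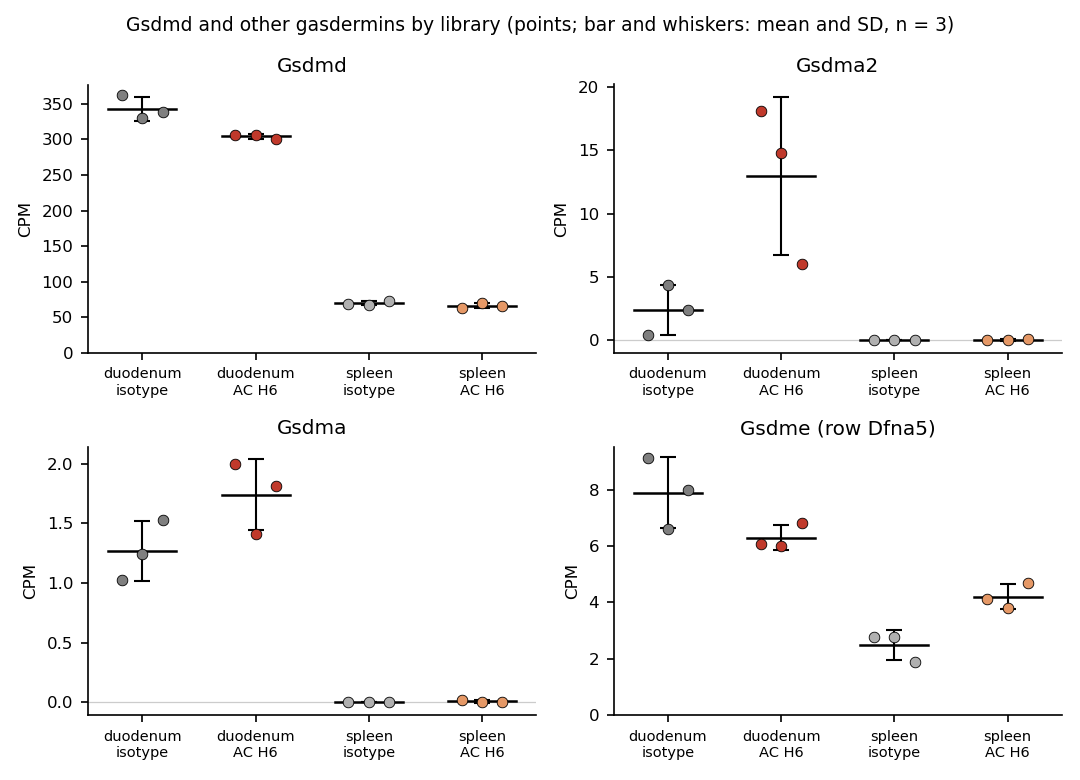
Level in CPM (vertical axes, linear, different in each panel) of Gsdmd, Gsdma2, Gsdma and Gsdme in the 12 libraries by tissue and antibody (horizontal axes). Points are libraries, bars and whiskers the mean and SD of 3 libraries; Gsdmd differs mainly between tissues, and the AC H6 libraries of Gsdma2 in duodenum lie at 6.00 to 18.1 CPM, above the isotype libraries.

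Of the other gasdermin rows, Gsdma2 rose in the duodenum. This member of the Gsdma branch (chr11:98646759-98657964, plus strand), a branch known from skin and upper digestive epithelium, had 9, 126 and 62 reads under isotype and 606, 408 and 222 under AC H6. Its log2 fold change was 2.35 ± 0.56 (edgeR quasi-likelihood, adjusted p = 0.0131), and all AC H6 libraries were above all isotype libraries. Without isotype replicate 2 the log2 fold change was 3.08. It was 1 of 3 rows of the family outside the members that could be tested in the duodenum, where 18.5% of all genes were called higher. In the spleen it had 0, 0 and 0 reads against 1, 0 and 2.

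Genes of the stomach surface moved over the duodenum libraries beside Gsdma2. Gkn1, a secreted protein of gastric surface cells, was at 1.54, 416.9 and 254.3 CPM under isotype and at 870.7, 788.7 and 182.7 CPM under AC H6, and Tff1 at 1.64, 283.0 and 174.0 against 538.2, 475.0 and 110.0 CPM. The lowest isotype library of Gsdma2, Gkn1 and Tff1 was replicate 1, and the lowest AC H6 library replicate 3. The summed level of 12 genes listed as stomach epithelium was 11110 to 20630 CPM under isotype and 19560 to 32340 CPM under AC H6. Most of that sum came from Muc6, Tff2 and Gkn3, at 4348, 4393 and 2293 CPM in isotype replicate 1. Gkn1 and Tff1 were at 1.54 and 1.64 CPM in that library, so the sum measures neither the surface genes nor the amount of stomach tissue. The acid pump genes Atp4a and Atp4b were near 0, at 0.238 ± 0.171 and 0.101 ± 0.0464 CPM under isotype. Of the 9 genes of that list tested, 2 were called higher in the duodenum and 0 lower, against 18.5% and 16.1% of all genes. That list was made after the data had been seen, and its part in the Gsdma2 difference was not tested.

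Gsdma, a skin and gastric gasdermin, was at 1.03, 1.24 and 1.53 CPM under isotype and at 2.00, 1.41 and 1.81 CPM under AC H6 in the duodenum. Its groups overlapped and the test was not passed (log2 fold change 0.47 ± 0.21, edgeR adjusted p = 0.118). Gsdma3 had 1 read under isotype and 8 under AC H6 and was not tested. Gsdme, the gasdermin cut by caspase-3, did not pass the test in either tissue. In the spleen it was at 2.78, 2.78 and 1.87 CPM under isotype against 4.13, 3.80 and 4.71 CPM under AC H6, without overlap, with a log2 fold change of 0.76 ± 0.18 (edgeR adjusted p = 0.0575). DESeq2 gave adjusted p = 0.00995 and the fit of all 12 libraries 0.0245. In the duodenum its log2 fold change was -0.29 ± 0.14 (edgeR adjusted p = 0.127; -0.41 and 0.038 without isotype replicate 2). Pjvk (row Dfnb59) had at most 1 read per duodenum library and 2 to 9 per spleen library. The cluster pseudogene Gsdmcl1 had 0 reads in all libraries, and Gsdmcl-ps had at most 1.

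Of the proteases that can cut gasdermins, Casp4 was the 1 that rose in the duodenum. It encodes caspase-11, the sensor of cytosolic lipopolysaccharide and an activator of Gsdmd, and went from 9.59, 9.99 and 9.12 CPM to 21.5, 20.2 and 22.9 CPM (log2 fold change 1.19 ± 0.08, edgeR adjusted p = 2.79e-05). Casp1, the inflammasome caspase, did not pass the test (0.08 ± 0.08, adjusted p = 0.496), nor did Casp8, an initiator caspase that can cut Gsdmc and Gsdmd (0.19 ± 0.09, adjusted p = 0.128; 0.0308 without AC H6 replicate 1). Casp6, an effector caspase, fell by 0.53 on the log2 scale (adjusted p = 0.000736). Of 9 proteases considered 7 were tested in the duodenum, of which 1 rose and 1 fell, near the shares over all genes tested (18.5% higher and 16.1% lower). Their median log2 fold change was 0.12 against 0.01 over all genes.

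In the spleen 3 of the 9 proteases rose and none fell in edgeR's test, where 3.98% of all genes tested were called in either direction. The neutrophil granule proteases Elane (log2 fold change 1.52 ± 0.25, edgeR adjusted p = 0.0293) and Ctsg (1.44 ± 0.27, adjusted p = 0.037) and the cytotoxic protease Gzmb (0.67 ± 0.10, adjusted p = 0.0251) passed the test. Casp4 did not (0.04 ± 0.07, adjusted p = 0.709). The summed level of 12 neutrophil markers in the spleen was 560.0 to 868.7 CPM under isotype and 1687 to 2411 CPM under AC H6, 11 of the 12 were called higher, and the part of that shift in the protease values was not tested. The calls of Elane, Ctsg and Gzmb were lost when single libraries were left out, at adjusted p up to 0.12, 0.131 and 0.104, with log2 fold changes still between 0.61 and 1.82. With the replicate number as a block they had adjusted p of 0.109, 0.114 and 0.104.

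Inflammasome sensors and their adaptor moved both ways in the duodenum. Pycard, the adaptor ASC that links sensors to caspase-1, fell from 126.1, 121.5 and 115.0 CPM to 75.4, 75.1 and 78.3 CPM (log2 fold change -0.64 ± 0.06, edgeR adjusted p = 0.000195). Naip1 and Naip6, sensors of bacterial flagellin and secretion system proteins, fell by 0.43 and by 0.59 on the log2 scale (adjusted p = 0.00338 and 0.00362). Naip6 shares reads with its close paralogs, so its value is uncertain. Nek7, a partner of Nlrp3, rose (0.43 ± 0.08, adjusted p = 0.00418). Nlrp3 itself, named after its values were seen, rose by 1.02 ± 0.20 (adjusted p = 0.00543) from a low 1.13 ± 0.279 CPM.

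Nlrp6, an epithelial sensor that is abundant in this tissue, fell from 203.3 ± 6.19 to 167.9 ± 5.52 CPM (SD, n = 3; log2 fold change -0.25 ± 0.06, edgeR adjusted p = 0.0163). That call was lost in the fit of all 12 libraries (adjusted p = 0.211), without isotype replicate 1 (0.058) and without AC H6 replicate 2 (0.0522). Nlrc4, the adaptor of the Naip sensors, did not pass edgeR's test (-0.21 ± 0.08, adjusted p = 0.0566), but was called lower by DESeq2 (0.0357), by edgeR with DESeq2's size factors (0.0463) and without AC H6 replicate 2 (0.0365). Of 14 sensors and adaptors tested in the duodenum 4 rose and 7 fell, where 18.5% of all genes rose and 16.1% fell. Their median log2 fold change was -0.25. Of 14 tested in the spleen 0 passed edgeR's test and 4 had an unadjusted p under 0.05 (Nlrp1a, Nlrp3, Naip2 and Aim2). DESeq2 called 1 of them, Aim2, lower (log2 fold change -0.32, adjusted p = 0.0177), and limma-voom 0. In the duodenum the summed level of 10 macrophage and monocyte markers was 240.7 to 245.9 CPM under isotype and 366.5 to 431.7 CPM under AC H6, and 8 of 8 tested were called higher. Its part in the sensor values was not tested.

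**Figure D4:**
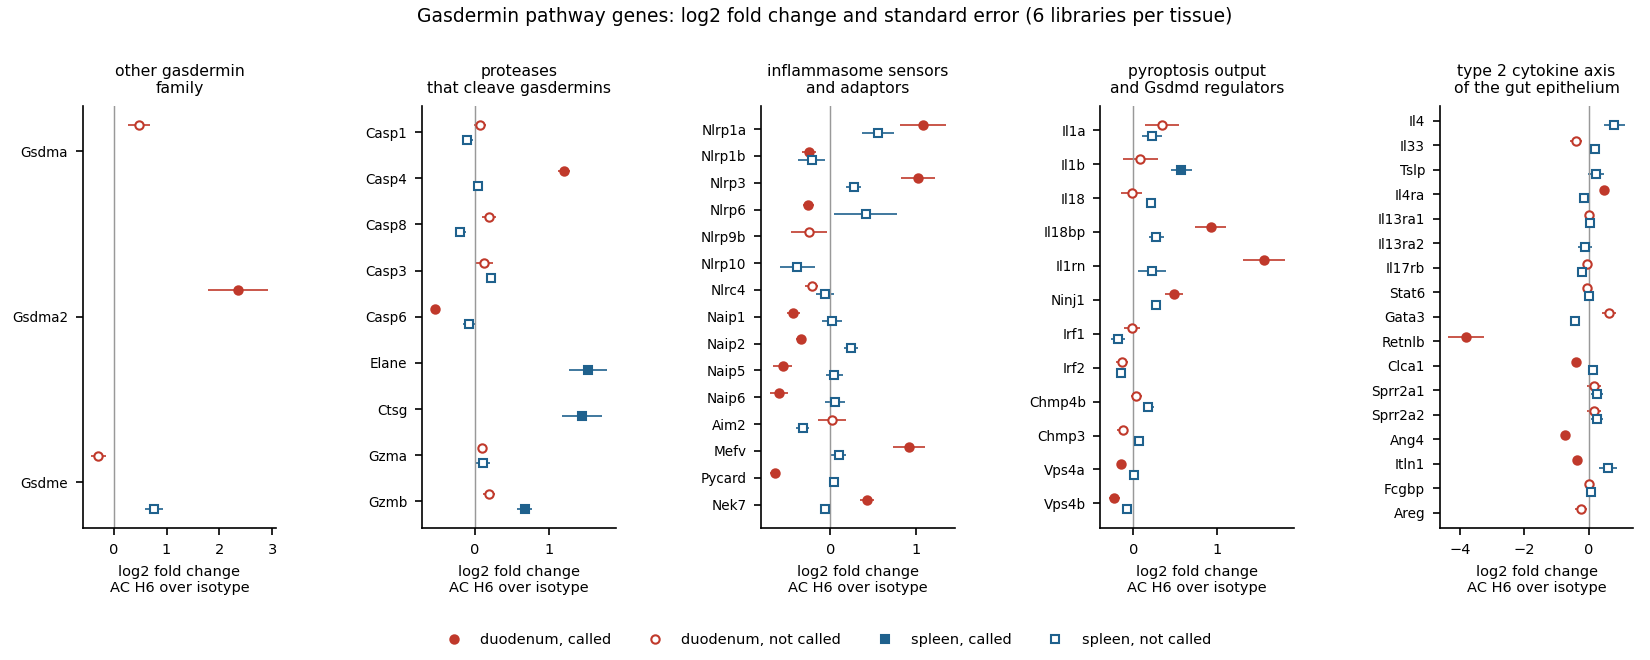
Log2 fold change of AC H6 over isotype with its standard error (horizontal axes) for the listed genes of 5 pathway groups (vertical axes), in duodenum (circles) and spleen (squares); filled symbols passed edgeR's test at an adjusted p of 0.05. Casp4, Il1rn and Gsdma2 are among the filled circles right of 0, Pycard and Retnlb among those left of 0.

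Among the cytokines and regulators downstream of gasdermin pores, the inhibitors rose in the duodenum while the cytokines themselves did not pass the test. Il1rn, the interleukin-1 receptor antagonist, rose by 1.57 ± 0.25 on the log2 scale (edgeR adjusted p = 0.00238), and Il18bp, which binds interleukin-18, by 0.93 ± 0.19 (adjusted p = 0.00623). Ninj1, which ruptures the membrane in the last step of lytic death, rose by 0.48 ± 0.11 (adjusted p = 0.00962). Il1b and Il18 had adjusted p of 0.784 and 0.922. Irf2, a transcription factor known to drive Gsdmd, did not pass either (-0.13 ± 0.07, adjusted p = 0.189). Vps4b, an ATPase of the membrane repair machinery that removes gasdermin pores, fell by 0.22 (adjusted p = 0.025), a call lost without any single library but AC H6 replicate 3 (adjusted p up to 0.101). In all, 3 of 12 rose and 2 fell, near the shares over all genes (18.5% and 16.1%). Markers of myeloid cells moved in the same libraries, and the macrophage markers rose as given for the sensors. The 12 neutrophil markers summed to 58.1 to 63.0 CPM under isotype and 98.5 to 116.9 CPM under AC H6 (5 of 9 tested rose, 1 fell). Most of that rise was Mmp9, at 26.9 ± 3.32 and 64.4 ± 8.27 CPM (SD, n = 3). Retnlg went from 5.57 to 3.62 CPM and Lcn2 from 1.24 to 0.760 CPM, so the sum does not follow neutrophils alone. The part of these myeloid markers in the values of Il1rn, Il18bp and Ninj1 was not tested. In the spleen edgeR called 1 of 12 higher, Il1b, from 15.8 ± 2.13 to 23.3 ± 2.46 CPM (SD, n = 3; 0.58 ± 0.12, adjusted p = 0.047), and the call was lost whichever library was left out (adjusted p from 0.05 to 0.125) and with the replicate block (0.105). DESeq2 called 2 of 12 in the spleen. Ninj1 there (0.27 ± 0.06, edgeR adjusted p = 0.0511) was called higher by DESeq2 (0.033), with DESeq2's size factors (0.0489) and with the stricter filter (0.0499).

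The type 2 cytokine axis is the known driver of Gsdmc in the gut. Il4ra, the receptor chain shared by interleukin-4 and interleukin-13, rose in the duodenum from 68.5 ± 9.45 to 92.9 ± 5.98 CPM (SD, n = 3; log2 fold change 0.46 ± 0.10, edgeR adjusted p = 0.00817). Il13ra1, the partner chain, was at 168.3 ± 11.02 and 166.7 ± 3.26 CPM (adjusted p = 0.936), and Stat6, the transcription factor below the receptor, at 176.9 ± 10.2 and 167.9 ± 4.82 CPM (adjusted p = 0.589). The cytokine genes Il4, Il5, Il13 and Il25 had means under 0.15 CPM in both duodenum groups and were not tested.

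Retnlb, a goblet cell defence protein that type 2 cytokines induce, fell. It had 14, 18 and 25 reads under isotype and 0, 1 and 4 under AC H6 (log2 fold change -3.79 ± 0.56, edgeR adjusted p = 0.00155; pooled ratio 15.1, interval 6.12 to 48.4). Without AC H6 replicate 3, which held 4 of its 5 reads under AC H6, the ratio was 47.1, and without AC H6 replicate 1 it was 9.97. Ang4, an antimicrobial protein of Paneth and goblet cells, fell from 129.8 ± 11.3 to 76.9 ± 17.0 CPM (-0.73 ± 0.15, adjusted p = 0.00638). Clca1 (row Clca3), a goblet cell product, fell by 0.41 on the log2 scale (adjusted p = 0.00421), a call lost without the 2 libraries that stood apart (adjusted p = 0.059). Other products on the list, named after their values were seen, did not pass the test. They were Sprr2a1 (0.14 ± 0.22, edgeR adjusted p = 0.638), Fcgbp (0.01 ± 0.05, 0.848) and Areg (-0.25 ± 0.18, 0.324). Of 14 genes of the axis tested in the duodenum 1 rose and 4 fell, against 18.5% and 16.1% of all genes, with a median log2 fold change of -0.06. The rows Sprr2a1 and Sprr2a2, both among the 14, had the same counts in every library. In the spleen 0 of 14 passed edgeR's test, and 3 had an unadjusted p under 0.05 (Gata3, Il4 and Il4ra). DESeq2, which gave an adjusted p for 11 of the 14, and limma-voom called 0. Without AC H6 replicate 2 edgeR called Gata3 lower there (-0.56, adjusted p = 0.0463).

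Markers of the labelled tissues were present: the 13 enterocyte genes summed to 37450 to 44050 CPM in duodenum libraries and 81.0 to 93.6 CPM in spleen libraries, and 6 B cell genes to 9.08 to 12.3 CPM in duodenum and 1971 to 2654 CPM in spleen. Within the duodenum the enterocyte genes summed to 42090 to 44050 CPM under isotype and to 37450 to 39170 CPM under AC H6, without overlap (7 of 13 fell, 2 rose). 8 genes of the proximal intestine, listed after the data had been seen, went from 4400 to 4996 CPM down to 3199 to 3687 CPM (5 of 8 fell, 1 rose). A list of 9 genes of distal intestine and colon, also made late, went from 305.4 to 396.9 CPM down to 207.3 to 238.5 CPM. Of its 5 genes tested 2 fell and 1 rose, and Slc26a3 gave most of its sum (335.5 and 190.7 CPM). The summed goblet cell markers were 9371 to 9684 CPM under isotype and 8143 to 8878 CPM under AC H6 (0 of 6 tested rose, 2 fell). The crypt and stem cell markers went from 824.9 to 937.9 CPM up to 1135 to 1416 CPM (6 of 7 rose), and the villus tip markers overlapped (3365 to 4746 against 3721 to 4211 CPM). Tuft cell markers were at 71.5 to 72.5 CPM under isotype and 72.6 to 79.5 CPM under AC H6 (2 of 5 tested rose). The same sum was 73.0 to 79.6 CPM in isotype spleen and 89.6 to 97.0 CPM in AC H6 spleen, so it does not follow tuft cells alone. Alox5ap, 1 of the genes that rose and named after its values were seen, also rose in the spleen (0.38 ± 0.06, edgeR adjusted p = 0.0251). Over all genes tested in the duodenum 18.5% were called higher and 16.1% lower, and each of these lists holds few genes. The part of these marker shifts in the Gsdmc values was not tested.

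The protein-coding genes next to the cluster did not pass the test. Fam49b, the next protein-coding gene above Gsdmc4, was at 42.4 CPM under isotype and 43.7 CPM under AC H6 in the duodenum (log2 fold change 0.07 ± 0.05, edgeR adjusted p = 0.296). Asap1, beyond it, gave 0.05 ± 0.10 (adjusted p = 0.725), and Adcy8, a duodenal gene further out at 7.85 CPM, gave -0.31 ± 0.16 (adjusted p = 0.174). Next to Gsdmd, Zc3h3 did not pass the test (-0.10 ± 0.07, adjusted p = 0.314), Naprt1 fell by 0.24 (adjusted p = 0.043) and Eef1d rose by 0.20 (adjusted p = 0.0398). Rhpn1, also near Gsdmd, had 1, 1 and 4 reads under isotype and 8, 6 and 6 under AC H6. Over all genes tested in the duodenum 18.5% were called higher and 16.1% lower. All these neighbours are outside the rule for named genes, and those of Gsdmd were picked from the genes nearby.

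The 8 genes whose pattern over the 6 duodenum libraries was nearest to that of the summed Gsdmc counts were Ccl28, Apol10a, Rbp7, Dnase1, Il22ra1, Ros1, Barx2 and Cfhr2. Likeness was the root mean square difference of log2 CPM after centring each gene, among genes with a mean log2 CPM of at least 1 in the duodenum. It ran from 1.29 for Ccl28 to 1.61 for Cfhr2, so none of the genes above that level came close to the Gsdmc change. The Gsdmc sum itself had a mean below that level, so genes as low as it were left out of this ranking. Ccl28, a mucosal chemokine, was at 39.7, 61.4 and 49.9 CPM under isotype and 11.98, 12.54 and 12.03 CPM under AC H6. Il22ra1, the epithelial receptor chain for interleukin-22, was at 168.9 ± 17.8 and 49.8 ± 8.98 CPM (SD, n = 3).

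Without the minimum level, a choice made after the data had been seen, the nearest gene was Mbl2, a mannose-binding lectin, at a difference of 0.604. It had 12, 54 and 53 reads under isotype and 2, 0 and 1 under AC H6. The pooled ratio of Mbl2 was 52.7 (interval 17.6 to 259.0, and 37.9 to 104.1 with single libraries left out), against 27.4 for the Gsdmc sum. As with the Gsdmc paralogs, isotype replicate 1 was the lowest isotype library of Mbl2. Over all 12 libraries the gene nearest to Gsdmd was Tmem181a, at 0.0535, with 54.7 CPM in isotype duodenum and 11.8 CPM in isotype spleen. It was followed by Slc39a9, Sec31a, Ugp2, Mcfd2, Clstn1, Cmtm4 and Aldh3a2, the last at 0.0782. Over the 6 duodenum libraries alone, 0 of these 8 were among the 8 nearest to Gsdmd. These likenesses describe 6 and 12 libraries and carry no test.

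**Figure D5:**
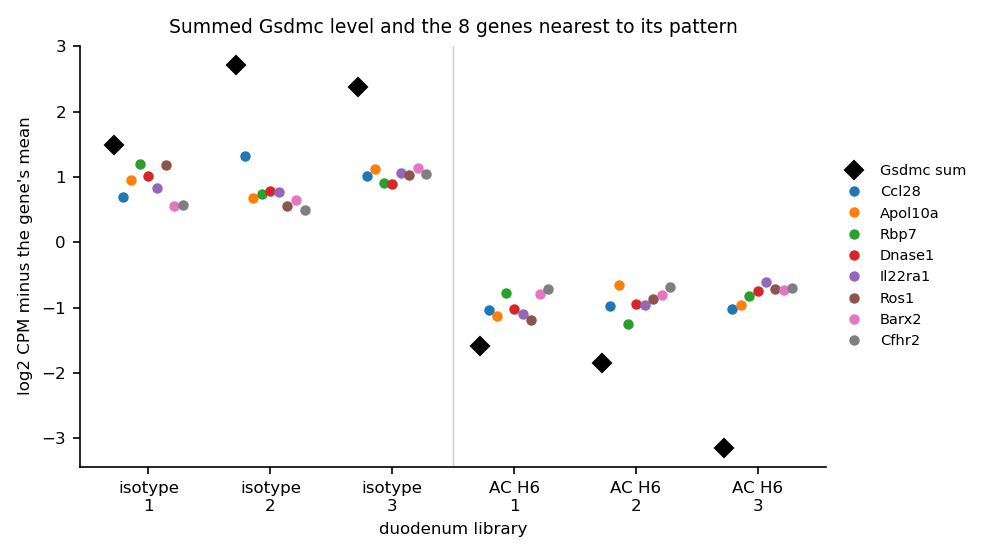
Log2 CPM minus the gene's mean over the 6 duodenum libraries (vertical axis), by library (horizontal axis). Black diamonds are the summed Gsdmc counts, and coloured points, shifted sideways, the 8 genes nearest to that pattern among genes above the minimum level. All 9 lie above 0 in the isotype libraries and below 0 in the AC H6 libraries, and of these 9 the Gsdmc sum spans the widest range.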

How the data were processed

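RNA was sequenced in 12 libraries of spleen and duodenum, 3 per tissue and antibody. The authors deposited whole-number read counts per gene, 23329 rows per library, which keep reads with several matches, per the file headers. The submitters' processing notes list STAR 2.3, bcl2fastq 2.19, edgeR and Trimmomatic and the build mm10. The kit named in the labels does not mark strand. Which tool counted the reads, and on which annotation, is not given in the sources used here. Brains are mentioned in the labels' extraction protocol, although the samples are labelled spleen or duodenum. Library totals ran from 13874091 to 45847467 counts. Paralog reads are shared, so counts of single Gsdmc rows are uncertain.

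From these counts edgeR 4.0.16 (R 4.3.3) gave CPM with TMM factors over the 12 libraries and, for each comparison of 2 groups, a quasi-likelihood F-test after filterByExpr, without covariates. A gene was called where p, adjusted by Benjamini-Hochberg across the genes tested, was under 0.05. Log2 CPM used a prior count of 2. The rule for named genes took the 5 members, the other gasdermins, 11 pathway genes whatever their p, up to 4 of smallest p from each pathway list per comparison, and the 8 most alike; others are said to be chosen later. The members and lists were chosen with earlier results of these data known. The libraries of a group differed by more than sampling noise (chi-square per degree of freedom from 24.6). Alternatives were other size factors, filters, DESeq2 1.42.0, limma-voom (3.58.1), 1 fit of 12 libraries, the replicate block, and each library left out. The fits were tested on simulated data. Between tissues, libraries with the same number correlated at 0.29, 0.45 and 0.13 in their deviations, and the other pairs at -0.35 to 0.10. No label states a pairing, and the main fits used none. The replicate block, an alternative that treats equal numbers as belonging together, changed the calls between tissues from 13781 to 13799. Gsdmcl2, Sprr2a3, Muc2, Sh2d6 and Epb42 were not analysed here, and 1 gene of the protease list is not reported here. Clca1 was read from the row Clca3, a choice made after its values were known.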

Additional observations from a re-analysis of the deposited data

How the results depend on the processing

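In the spleen edgeR called 608 genes, DESeq2 1356, the fit of all 12 libraries 1390 and the fit with the replicate number as a block 1. Leaving out single libraries gave 14 to 1132 calls: 14, 68 and 104 without isotype replicates 1, 2 and 3, and 76, 1132 and 30 without AC H6 replicates 1, 2 and 3. Same-numbered libraries of the 2 antibodies correlated at 0.46, -0.38 and -0.05 in the spleen and at 0.55, 0.38 and -0.24 in the duodenum. The main fits took the numbers as a pairing in no comparison. In the duodenum the count of 5428 became 5421 with the replicate block and stayed between 3979 and 5520 elsewhere. Between tissues 13781 lay among 12087 to 14726.

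The members kept their direction in all alternatives: the duodenal log2 fold change ran from -4.32 to -3.17 for Gsdmc2, from -4.21 to -3.46 for Gsdmc3, from -5.98 to -5.36 for Gsdmc4 and from -0.18 to -0.10 for Gsdmd. With the stricter filter no Gsdmc row was tested. Gsdmd in spleen ran from -0.10 to -0.03 (adjusted p 0.321 to 0.836) and between tissues from 2.24 to 2.34. Gsdma2 ran from 1.94 to 3.08 (adjusted p 0.0014 to 0.0477) and Retnlb from -5.24 to -3.23. Of 1217 alternative values for 86 single-gene results, 1154 stayed the same, 33 lost the call, 14 gained it and 15 changed sign. Staying the same meant keeping direction and call. For members in the duodenum it meant a change smaller than the SD between libraries, with no call weighed, and 1 such value moved further. Of the 8 genes most like the Gsdmc sum, 1 remained over all 12 libraries and 2 without a minimum level. Of the 8 most like Gsdmd, 0 remained over the duodenum libraries alone.

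Among the named genes, signs changed only in some that were not called. With single libraries left out, log2 fold changes in the spleen ran from -0.1539 to 0.0021 for Nlrc4, from -0.0014 to 0.0779 for Il13ra1 and from -0.063 to 0.0319 for Stat6. In the duodenum they ran from -0.1362 to 0.1023 for Il18, from -0.0803 to 0.34 for Il1b and from -0.0404 to 0.0578 for Il13ra1. Il1b was at -0.0724 without the 2 libraries that stand apart. Il13ra1 there was at -0.0007 with DESeq2 size factors and at -0.0134 in the fit of 12 libraries. The causes were not tested. Depth limits the Gsdmc rows, with 0 to 6 reads per AC H6 duodenum library.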
